A study of Mus musculus with 12 samples.

Results

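T cell receptor signalling was followed through 38 genes that carry the signal from the receptor at the cell surface to the nucleus, chosen from a list of symbols and matched by exact symbol to the gene column of both expression tables. All 38 were found among the 45703 genes of each table. They comprise 8 receptor, coreceptor and costimulatory genes, 6 kinases, 8 adaptors, 11 effectors and 5 brakes. The adaptor gene Lcp2 is described first and in every library.

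The libraries came from mouse CD4+ T cells on the C57BL/6 background that had been activated through CD3 and CD28 and driven towards Th17 or Th1 with cytokines for 3 days. The 4 groups were Th17 KO, Th17 WT, Th1 KO and Th1 WT, with 3 libraries each. KO cells had the genotype Slc2a3-fl/fl Cd4-cre, in which Cre under Cd4 control acts on a conditional allele of Slc2a3, the gene of the glucose transporter GLUT3, in T cells. WT cells were labelled wild type, and neither a Cre-only nor a floxed-only control was used here. The labels do not say whether replicates came from separate animals or cultures, so that a p-value speaks to the scatter among libraries alone, part of which may be technical. In RNA from a whole culture, fewer cells of a type and less RNA per cell cannot be told apart.

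When the receptor binds its ligand, Lck phosphorylates the CD3 and zeta chains, ZAP-70 docks there and phosphorylates the membrane scaffold LAT and the adaptor SLP-76, which Lcp2 encodes. LAT and SLP-76 together hold phospholipase C gamma, Vav and Ras activators in a single complex, from which calcium, NFAT, NF-kappaB, MAP kinase and actin responses start. Phosphatases, Csk and ubiquitin ligases of the Cbl family turn the signal down. The cells here had been stimulated through this same receptor, so the levels are those of activated cells.

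Slc2a3 was checked first; which exons the conditional allele removes is not given in the sources used here, and its reads were counted over the whole gene. It stood at 5.14, 18.7 and 3.30 TPM (a level scaled to gene length and library total) in Th17 KO libraries 1, 2 and 3, against 379, 109 and 44.6 TPM in Th17 WT. In Th1 it stood at 6.79, 4.49 and 7.97 TPM in KO, against 398, 95.6 and 64.7 TPM in WT. Every KO library lay below every WT library in both lineages, and the highest KO value was that of Th17 KO replicate 2. Th17 markers (5 genes) summed to 473 to 657 TPM in Th17 KO and 660 to 1186 TPM in Th17 WT, against 9.00 to 27.6 TPM in Th1 KO and 20.1 to 22.3 TPM in Th1 WT. Th1 markers (4 genes) summed to 96.5 to 380 TPM in Th17 KO and 44.1 to 69.7 TPM in Th17 WT, against 7205 to 9113 TPM in Th1 KO and 781 to 1350 TPM in Th1 WT. The marker sums of the lineages did not overlap. Th17 KO replicate 2 stood apart. Its genes differed from those of its fellow Th17 KO libraries by a median of 0.62 on the log2 scale, and the same measure was 0.14 to 0.42 in the remaining 11 libraries, and its recovered reads were 16936787 of a range of 16596283 to 28496606. Counts, medians and named differences that rest on this library are also given without it.

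Lcp2 lies on chromosome 11 (GRCm38.p6, chr11:34046928-34092281, plus strand) with 3622 bases of combined exon. In Th1 it stood at 17.6, 15.3 and 13.9 TPM in KO, against 178, 167 and 176 TPM in WT. The KO libraries lay close together and far below all WT libraries, with 433 to 993 reads behind the KO values and 6200 to 6978 reads behind the WT values. The mean was 15.6 ± 1.88 TPM in Th1 KO and 174 ± 5.85 TPM in Th1 WT (SD, n = 3 each). The log2 fold change (KO over WT, on log2(TPM + 1), as are all below) was -3.40 ± 0.14 (SE), a 10.6-fold fall, with a Benjamini-Hochberg adjusted p of 1.47e-05 in limma. The fall passed the test under all 14 alternative settings, with adjusted p-values of 3.54e-06 to 0.00418.

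In Th17 the same gene stood at 15.0, 192 and 28.6 TPM in KO, against 211, 235 and 196 TPM in WT. Replicates 1 and 3 of the KO group were far below every WT library, while replicate 2 came just under the lowest WT library, so that the genotypes did not overlap but nearly met. The reads behind them were 701, 4774 and 1634 in KO, against 8180 to 9520 in WT. The log2 fold change was -2.25 (95% interval -4.18 to -0.32) and did not pass the test over all genes (limma adjusted p = 0.148). Without replicate 2 it was -3.30 ± 0.27 (SE, limma adjusted p = 0.000571). With the replicate number as a block, in a paired fit whose pairs were inferred from these data, it was -2.25 ± 0.56 (limma adjusted p = 0.0426). Lcp2 also passed with the spread of all 12 libraries. Of 14 alternative settings these 3 passed and 11 did not, with limma adjusted p-values of 0.000571 to 0.328 over the 14. The difference between the Th17 and the Th1 effect on Lcp2 was 1.15 (95% interval -0.84 to 3.14) with replicate 2 and 0.10 (95% interval -0.56 to 0.76) without it.

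**Figure D1:**
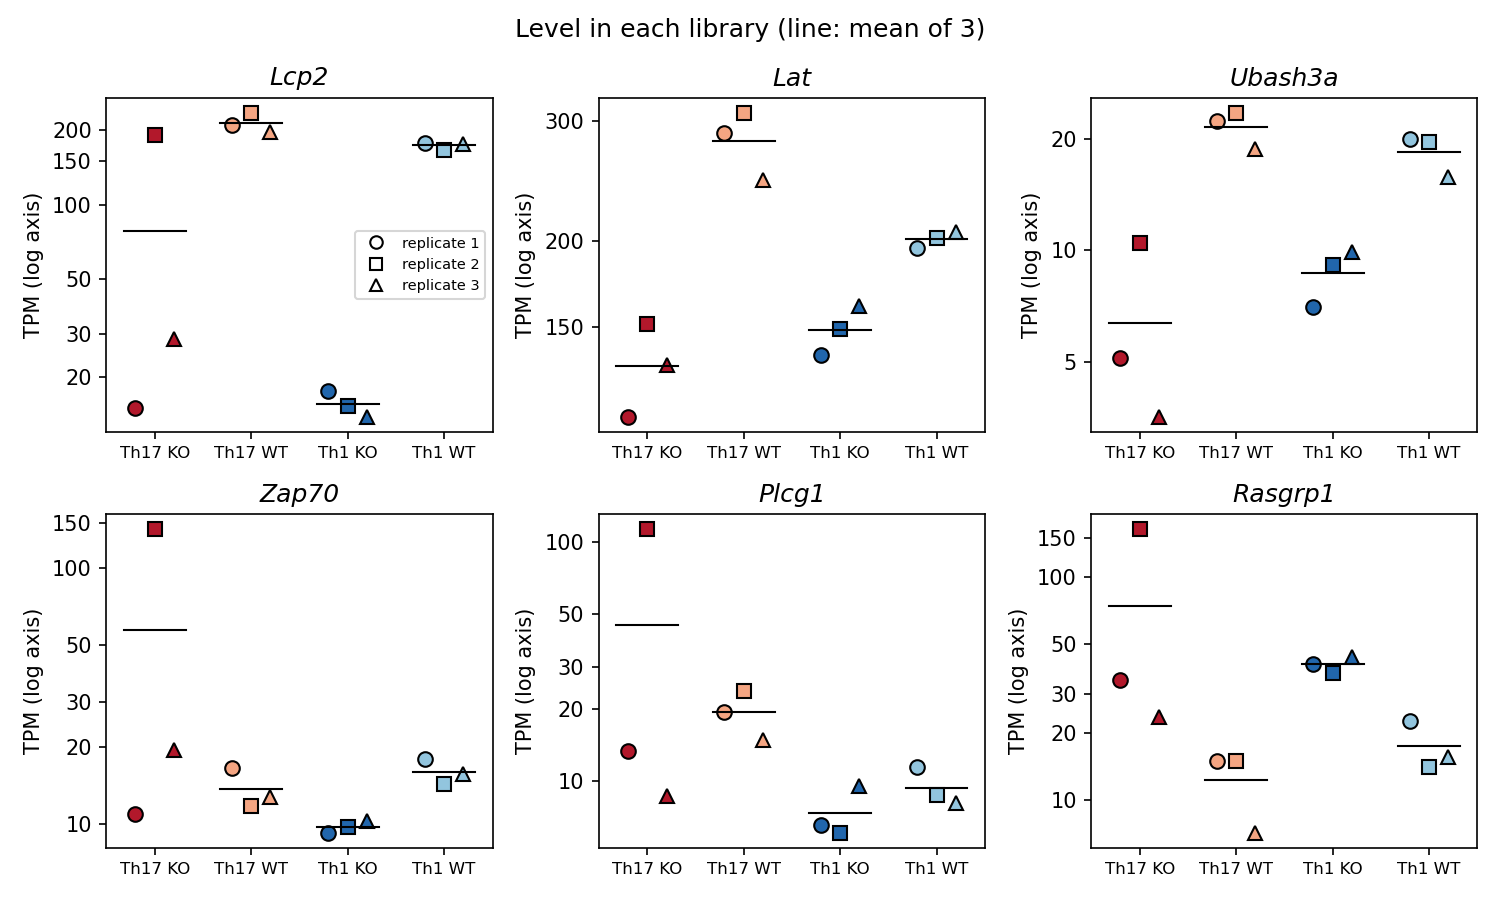
TPM (log axis) of Lcp2, Lat, Ubash3a, Zap70, Plcg1 and Rasgrp1 in each of the 12 libraries, by group, with a marker shape for each replicate number and a line at the mean of 3. Th17 KO replicate 2 stands with the WT libraries for Lcp2 (192 TPM) and above all other libraries for Zap70, Plcg1 and Rasgrp1 (142, 113 and 164 TPM), but among the KO libraries for Lat.

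A second transcript lies across Lcp2 on the other strand. The long noncoding gene 4930469K13Rik (chr11:33973961-34098554, minus strand) had 0.222, 0.209 and 0.182 TPM in Th17 KO, against 1.07, 1.02 and 0.902 TPM in Th17 WT. In Th1 it had 0 TPM in all 3 KO libraries, against 0.596, 0.497 and 1.29 TPM in WT. These levels rest on 0 to 9 reads per library and on a protocol that does not mark strand, so reads of this gene and of Lcp2 cannot be told apart where they overlap. In Th17 KO replicate 2 it had 1 read, although Lcp2 stood near the WT level there. It was picked for its position after its values were seen.

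The promoter windows of 4 genes are shown: Lcp2, Lat, Ubash3a and Rasgrp1. They were chosen after their values were seen, from the 9 genes for which every KO library lay on the same side of every WT library in both lineages, the first 3 below WT and Rasgrp1 above. Each runs 5′ to 3′ on the strand of the gene, from 250 bases before the start through 50 bases from the start on (RefSeq, GRCm38.p6): Lcp2 at chr11:34046678-34046977, plus strand, Lat at chr7:126369519-126369818, minus strand, Ubash3a at chr17:31207816-31208115, plus strand, and Rasgrp1 at chr2:117342828-117343127, minus strand. The start is the one that each RefSeq window takes. For Lcp2 and Rasgrp1 it is the first base of the gene in the deposited positions. For Lat (chr7:126363827-126369705) and Ubash3a (chr17:31207868-31259681) it lies inside the gene, downstream of that first base. Capitals mark the motifs found.
Lcp2: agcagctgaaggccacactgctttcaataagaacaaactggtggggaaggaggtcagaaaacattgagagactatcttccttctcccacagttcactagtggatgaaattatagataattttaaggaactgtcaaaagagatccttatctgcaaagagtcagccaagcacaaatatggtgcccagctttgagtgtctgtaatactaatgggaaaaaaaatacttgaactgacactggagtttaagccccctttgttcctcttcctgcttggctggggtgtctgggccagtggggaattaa
Lat: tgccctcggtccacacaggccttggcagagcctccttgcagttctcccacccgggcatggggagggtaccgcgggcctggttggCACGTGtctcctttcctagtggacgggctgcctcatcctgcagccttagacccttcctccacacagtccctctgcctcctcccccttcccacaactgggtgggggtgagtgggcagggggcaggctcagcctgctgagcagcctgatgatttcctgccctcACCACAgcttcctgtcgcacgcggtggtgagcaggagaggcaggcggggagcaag
Ubash3a: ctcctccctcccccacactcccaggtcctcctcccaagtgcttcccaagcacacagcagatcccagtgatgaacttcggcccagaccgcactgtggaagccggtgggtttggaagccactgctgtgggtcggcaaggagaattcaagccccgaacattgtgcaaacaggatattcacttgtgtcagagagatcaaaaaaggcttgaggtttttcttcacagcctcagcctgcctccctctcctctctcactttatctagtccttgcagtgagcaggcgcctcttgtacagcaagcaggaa
Rasgrp1: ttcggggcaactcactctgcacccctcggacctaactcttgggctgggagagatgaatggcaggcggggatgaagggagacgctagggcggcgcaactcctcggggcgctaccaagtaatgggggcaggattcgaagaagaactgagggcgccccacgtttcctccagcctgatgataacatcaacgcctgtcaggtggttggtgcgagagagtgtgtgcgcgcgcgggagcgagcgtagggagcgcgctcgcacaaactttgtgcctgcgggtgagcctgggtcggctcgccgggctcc
Of 4 motifs searched on both strands, the RUNX motif TGTGGT and the E-box CACGTG each occurred in the Lat window (the RUNX motif as its reverse complement), and none of the 4 occurred in the windows of Lcp2, Ubash3a and Rasgrp1. The other motifs were the ETS motif CCGGAAG and the AP-1 motif TGANTCA, and no motif overlapped another in these windows. Across all 32851 windows of the same length the RUNX motif occurred in 16.8%, the ETS motif in 8.86%, the AP-1 motif in 7.81% and the E-box in 7.15%. Of the 31 genes with a window, 7 held the RUNX motif (Lat, Lck, Ptpn22, Sos1, Txk, Was and Zap70), 2 the E-box (Lat and Zap70), 1 the ETS motif (Bcl10) and 1 the AP-1 motif (Vav3). These genes had 44 windows, and a gene counted if any of its windows held the motif. The counts are therefore not on the scale of the shares of windows above.

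The 38 genes were all expressed. Their mean TPM over the 12 libraries ran from 1126 for Cd3g, a CD3 chain, 863 for Lck and 785 for Cd3d down to 3.12 for Sos1, a Ras activator, and 2.58 for Vav3, an exchange factor for small GTPases. No gene was under 1 TPM in every library, and all 38 entered each comparison. They summed to 5579 to 7102 TPM in Th17 KO and 5004 to 5971 TPM in Th17 WT, against 5984 to 6146 TPM in Th1 KO and 5147 to 5670 TPM in Th1 WT. Replicates scattered least in Th1 KO, where the median coefficient of variation of the 38 genes was 8.53%, against 38.6% in Th17 KO, 18.8% in Th17 WT and 16.1% in Th1 WT.

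**Figure D2:**
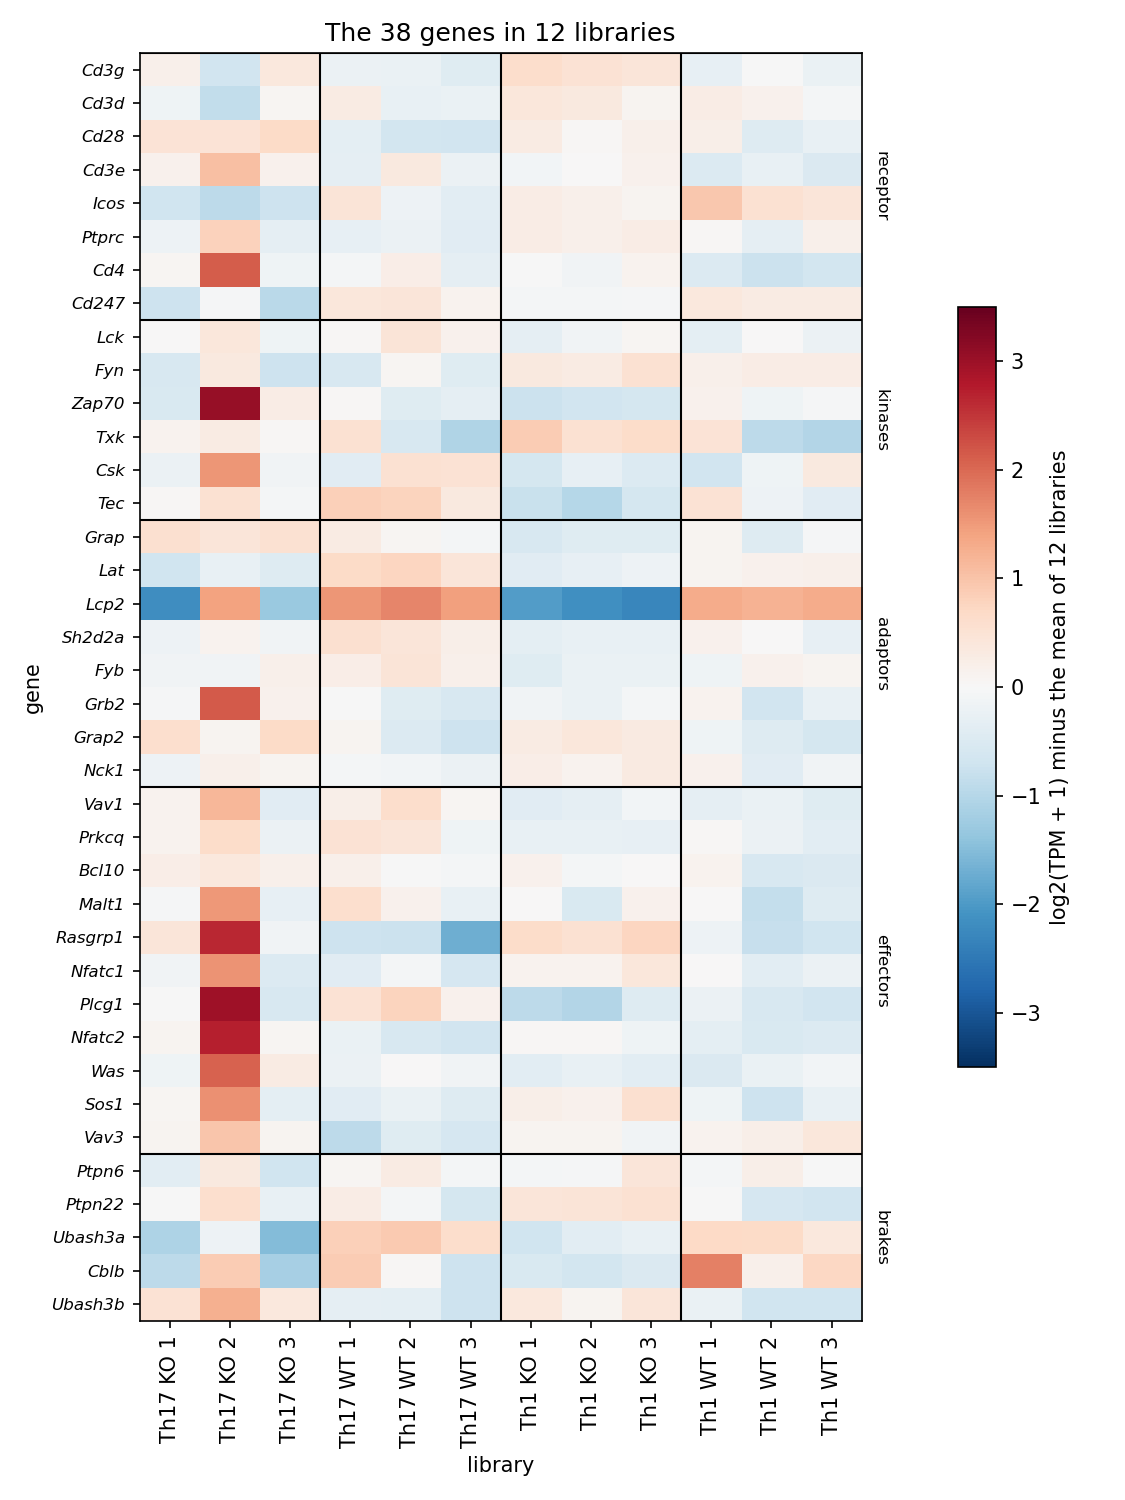
log2(TPM + 1) of the 38 genes (rows, by role and falling mean level) in the 12 libraries (columns), minus the gene's mean over all libraries. Lcp2 is low in 5 of the 6 KO libraries, and the column of Th17 KO replicate 2 is red for most effectors, most of all for Plcg1 and the kinase Zap70.

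In Th1, loss of Slc2a3 was accompanied by changes in 15 of the 38 genes. The CD3 chains Cd3g and Cd3e, the coreceptor Cd4, the Ras activators Rasgrp1 and Sos1, the kinase Txk, the adaptor Grap2 and the brakes Ptpn22 and Ubash3b rose, 9 in all, while Lcp2, Lat, the kinases Zap70 and Tec and the brakes Ubash3a and Cblb fell, 6 in all. Over all 13487 genes tested, 17.6% rose and 13.7% fell, so the share of the 38 that changed (39.5%) stood beside a background of about the same order. Every KO library lay above or below every WT library for 22 of the 38 (57.9%), against 47.1% of all genes tested. The median log2 fold change was 0.095 for the 38 genes and 0.031 for all genes tested. Without a filter on low TPM 11 of the 38 passed, beside 3696 of 24888 genes. With the spread estimated over all 12 libraries 4 passed (Lcp2, Ptpn22, Ubash3a and Ubash3b), beside 2568 of 14579 genes.

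At the receptor, 3 of 8 genes rose in Th1 and none fell. Cd3g stood at 1665, 1539 and 1447 TPM in KO, against 884, 1079 and 931 TPM in WT, and its log2 fold change was 0.69 ± 0.13 (SE, limma adjusted p = 0.00458). Cd4, the coreceptor that binds MHC class II and brings Lck, stood at 74.8, 70.0 and 83.2 TPM in KO, against 54.0, 44.8 and 48.0 TPM in WT (0.63 ± 0.15, limma adjusted p = 0.0117). Every KO library was above every WT library for both genes. Cd3e followed with a smaller difference, at 264, 290 and 314 TPM in KO against 203, 240 and 202 TPM in WT (0.43 ± 0.14, limma adjusted p = 0.0460). Its call was lost in 10 of 14 alternatives, among them median-of-ratios scaling, the replicate block, voom and no filter on low TPM (limma adjusted p of 0.0362 to 0.278 over the 14). The other CD3 chain, Cd3d, overlapped between genotypes at 1009, 967 and 816 TPM in KO and 920, 851 and 732 TPM in WT. The zeta chain Cd247, at 40.2, 40.1 and 40.6 TPM in KO and 54.4, 51.3 and 51.4 TPM in WT, was lower in every KO library and missed the threshold (-0.37, 95% interval -0.67 to -0.07, limma adjusted p = 0.0622). Cd4 lies 2.06 Mb and the brake Ptpn6 1.92 Mb from Slc2a3 on chromosome 6, and whether flanking sequence differs between the genotypes was not tested.

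Among the kinases, 1 of 6 rose and 2 fell in Th1. Zap70, which phosphorylates LAT and SLP-76, stood at 9.28, 9.79 and 10.3 TPM in KO, against 18.0, 14.4 and 15.7 TPM in WT (log2 fold change -0.66 ± 0.15, limma adjusted p = 0.0121). Tec, of the Tec kinase family that acts on phospholipase C gamma, stood at 7.08, 6.00 and 8.09 TPM in KO, against 18.7, 11.2 and 9.61 TPM in WT (-0.77 ± 0.24, limma adjusted p = 0.0408). Both were lower in every KO library. Its relative Txk went the other way, at 34.1, 26.6 and 28.9 TPM in KO against 25.7, 9.01 and 8.40 TPM in WT (1.18 ± 0.36, limma adjusted p = 0.0377). WT replicate 1 was the highest WT library for both Tec family genes, and near the KO libraries for Txk. Lck, Fyn and Csk, the kinase that holds Lck back, had log2 fold changes of 0.05, 0.15 and -0.29 and did not pass.

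Of the 8 adaptors, Lcp2 and Lat fell and Grap2 rose in Th1. Lat, the membrane scaffold, stood at 137, 149 and 161 TPM in KO, against 195, 202 and 206 TPM in WT (log2 fold change -0.44 ± 0.13, limma adjusted p = 0.0328). Grap2, whose product GADS couples SLP-76 to LAT, stood at 23.0, 24.9 and 23.6 TPM in KO, against 16.7, 13.6 and 11.8 TPM in WT (0.74 ± 0.17, limma adjusted p = 0.00973). Neither gene overlapped between genotypes. The other adaptors did not pass the test: Grap and Grb2 (links to Ras), Nck1 (a link to actin), Sh2d2a (a partner of Lck) and Fyb (a link to integrins) had log2 fold changes of -0.35 to 0.35.

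Of the 11 effectors, Rasgrp1 and Sos1 rose in Th1, both exchange factors that switch Ras on, and none fell. Rasgrp1, which diacylglycerol recruits, stood at 41.0, 37.4 and 44.1 TPM in KO, against 22.7, 14.1 and 15.6 TPM in WT (log2 fold change 1.20 ± 0.20, limma adjusted p = 0.00210). Sos1 stood at 3.26, 3.15 and 4.51 TPM in KO, against 2.33, 1.25 and 2.09 TPM in WT (0.69 ± 0.21, limma adjusted p = 0.0340). Every KO library exceeded every WT library for both. The other 9, the phospholipase Plcg1, the exchange factors Vav1 and Vav3, the kinase Prkcq, the NF-kappaB adaptors Bcl10 and Malt1, the transcription factors Nfatc1 and Nfatc2 and the actin regulator Was, had log2 fold changes of -0.32 to 0.44.

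The brakes split in Th1. Ptpn22, a phosphatase that acts on Lck, stood at 69.8, 70.5 and 75.0 TPM in KO, against 51.2, 33.9 and 32.1 TPM in WT (log2 fold change 0.89 ± 0.19, limma adjusted p = 0.00802). Ubash3b stood at 10.2, 8.32 and 10.8 TPM in KO, against 6.46, 4.37 and 4.33 TPM in WT (0.84 ± 0.19, limma adjusted p = 0.0109), while its relative Ubash3a stood at 7.02, 9.14 and 9.88 TPM in KO, against 19.9, 19.6 and 15.8 TPM in WT (-1.01 ± 0.18, limma adjusted p = 0.00340). These 2 genes encode related proteins that hold back ZAP-70 signalling, and here every KO library was high for the first and low for the second. Cblb, a ubiquitin ligase that raises the need for costimulation, stood at 6.44, 5.88 and 6.56 TPM in KO, against 35.8, 11.2 and 16.8 TPM in WT (-1.46 ± 0.35, limma adjusted p = 0.0128). Its KO libraries were tight and its WT libraries far apart, with WT replicate 1 the highest. Ptpn6, the phosphatase SHP-1, did not pass (0.05 ± 0.17).

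Leaving out single Th1 libraries cost some of these calls. The calls of Lcp2, Rasgrp1, Ptpn22, Grap2, Cd3g, Cblb and Ubash3a passed in all 6 such fits, with the others lost in 1 or more: Cd3e, Lat, Sos1, Tec, Txk and Zap70 without KO replicate 1 or 2, Cd3e, Cd4, Lat, Sos1, Tec, Txk and Ubash3b without KO replicate 3, Cd3e and Tec without WT replicate 1, Lat, Sos1, Tec and Txk without WT replicate 2, and Cd3e, Lat and Txk without WT replicate 3. The number of the 38 that passed ranged from 8, without KO replicate 3, to 18, without WT replicate 1, and was 9 without KO replicate 1 or 2. Over all genes the same fits, in that order, passed 2728 of 13120, 4587 of 13181, 2594 of 13126 and 2747 of 13133.

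In Th17, 3 of the 38 genes passed the test: Cd28 rose, and Lat and Ubash3a fell. Over all 13823 genes tested 4.60% rose and 2.70% fell, so this share of the 38 (7.89%) was near the background. Every KO library lay above or below every WT library for 14 of the 38 (36.8%), against 36.7% of all genes tested. The median log2 fold change was 0.24 for the 38 genes and 0.039 for all genes tested. An unadjusted p under 0.05 in limma was found for 11 of the 38, against 3453 of all 13823 genes. When Th17 KO replicate 2 was left out the medians were 0.021 for the 38 and -0.108 for all genes, so that of all genes turned its sign. In that fit 18 of the 38 had an unadjusted p under 0.05 in limma, against 4389 of 13321 genes. By role, 1 of 8 receptor genes rose, 1 of 8 adaptors and 1 of 5 brakes fell, and none of the 6 kinases or 11 effectors passed. The log2 fold changes of the 35 that did not pass ran from -2.25 for Lcp2 to 2.04 for Rasgrp1.

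Cd28, the costimulatory receptor that the culture's anti-CD28 antibody engages, stood at 581, 583 and 662.5 TPM in Th17 KO, against 329, 264 and 263 TPM in Th17 WT. All KO libraries were above all WT libraries, and the log2 fold change was 1.09 ± 0.18 (SE, limma adjusted p = 0.0170). Lat stood at 111, 152 and 132 TPM in KO, against 287, 308 and 246 TPM in WT (-1.09 ± 0.20, limma adjusted p = 0.0224). Ubash3a stood at 5.14, 10.4 and 3.57 TPM in KO, against 22.4, 23.4 and 18.8 TPM in WT (-1.71 ± 0.37, limma adjusted p = 0.0388). Lat and Ubash3a were below WT in every KO library, replicate 2 included. With 1 library left out at a time, Cd28 lost its call without KO replicate 1 or 3 or WT replicate 2 or 3, and Lat and Ubash3a lost theirs without any library other than KO replicate 2. Cd28 also lost its call with median-of-ratios scaling (limma adjusted p = 0.0647), and Ubash3a without a filter on low TPM (limma adjusted p = 0.0757).

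Without Th17 KO replicate 2, 8 of the 38 genes passed, 4 in each direction, against 7.76% of all genes rising and 8.44% falling. Cd28 (log2 fold change 1.13), Grap2 (1.00), Rasgrp1 (1.22) and Ubash3b (0.91) rose, and Lcp2 (-3.30), Lat (-1.20), Ubash3a (-2.08) and Cd247 (-1.15) fell. The zeta chain Cd247 stood at 24.9, 40.9 and 21.3 TPM in KO, against 55.5, 56.6 and 45.6 TPM in WT, with every KO library below every WT library. Ubash3b stood at 11.3, 19.7 and 10.3 TPM in KO, against 5.94, 5.80 and 4.24 TPM in WT, and Rasgrp1 at 34.6, 164 and 23.6 TPM in KO, against 15.0, 14.9 and 7.13 TPM in WT. Their KO libraries all exceeded WT, with replicate 2 the highest. Grap2, at 28.6, 20.0 and 30.6 TPM in KO and 20.1, 13.1 and 11.0 TPM in WT, overlapped only through replicate 2. The paired fit with the replicate number as a block passed 5 of the 38, beside 1399 of all 13823 genes. It added Lcp2 and Rasgrp1 (2.04 ± 0.42, limma adjusted p = 0.0250) to Cd28, Lat and Ubash3a.

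**Figure D3:**
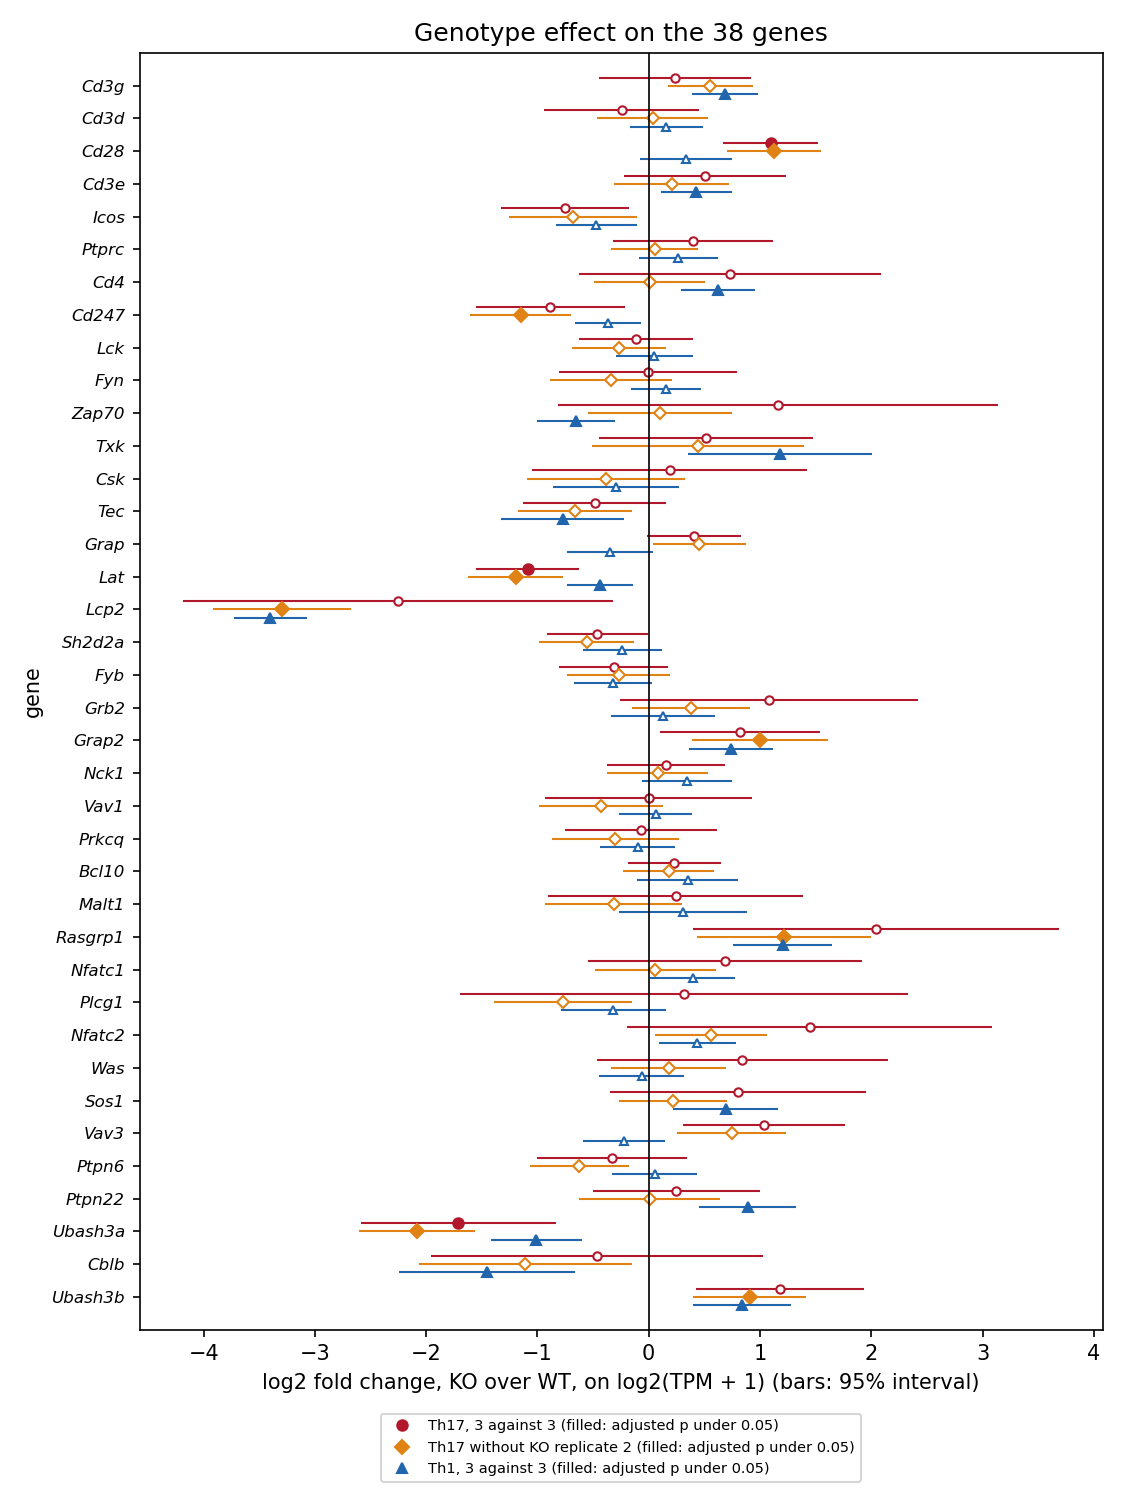
log2 fold change, KO over WT, with its 95% interval for each of the 38 genes in Th17 (circles), in Th17 without KO replicate 2 (diamonds) and in Th1 (triangles), where filled markers passed an adjusted p under 0.05. Intervals in Th17 are wide for Zap70, Plcg1, Rasgrp1, Nfatc2 and Lcp2 with replicate 2 and narrow without it, and Lcp2 lies furthest to the left in Th1 at -3.40.

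Replicate 2 of the Th17 KO group carried high levels of much of the pathway. Set against the mean of replicates 1 and 3 of its group, its median ratio over the 38 genes was 1.85, against 1.29 over 13691 genes. It exceeded that mean more than 2-fold for 18 of the 38 (47.4%, against 30.3% of all genes) and more than 4-fold for 10 (26.3%, against 10.6%). It was the highest of all 12 libraries for 19 of the 38. That last count was not made over all genes, so it cannot be read as particular to the 38. Plcg1, which splits membrane lipid into calcium and diacylglycerol signals, stood at 13.3, 113 and 8.67 TPM in Th17 KO, against 19.4, 23.9 and 14.9 TPM in Th17 WT. Zap70 stood at 10.9, 142 and 19.5 TPM in Th17 KO, against 16.7, 11.8 and 12.8 TPM in Th17 WT. Replicate 2 lay far above WT for both, replicates 1 and 3 lay below WT for Plcg1, and for Zap70 replicate 1 lay below and replicate 3 above. The ratio was 10.2 for Plcg1, 9.30 for Zap70, 8.79 for Lcp2, 6.67 for the calcium-driven factor Nfatc2 and 5.63 for Rasgrp1, and between 4.27 and 4.54 for Cd4, Cblb, Grb2, Was and Sos1. It was lowest for the CD3 chains Cd3g (0.516) and Cd3d (0.561). Ratios rose with combined exon length, with an r of 0.48 across all genes and 0.39 across the 38 as a description of this library, and the part of length or of RNA quality in the result was not tested. No other library stood as far from its group over the 38 genes: median ratios to the other 2 libraries of a group ran from 0.64 to 1.20 for the other 11, and the lowest 2 of these (0.64 and 0.744) are replicates 3 and 1 of the same group.

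**Figure D4:**
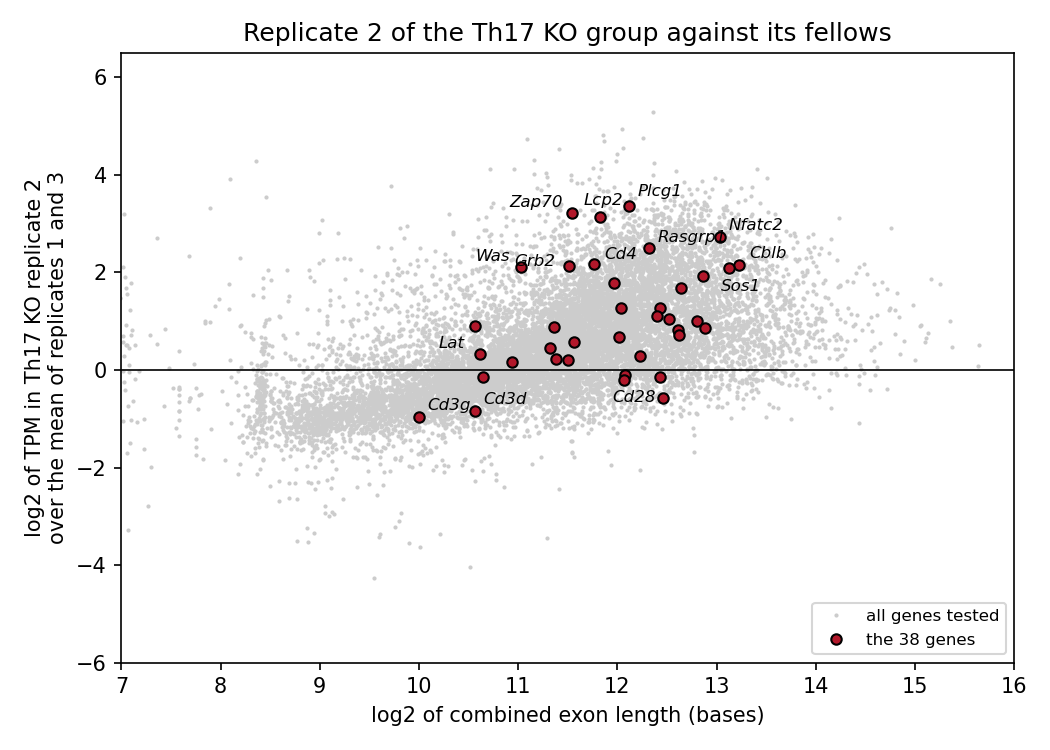
log2 ratio of TPM in Th17 KO replicate 2 to the mean of replicates 1 and 3 of that group, against log2 of combined exon length in bases, for all genes tested (grey) and the 38 genes (red). Most of the 38 lie above 0, up to 3.36 for Plcg1, and Cd3g and Cd3d lie lowest, at -0.95 and -0.83.

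The genotype effects of the lineages were set side by side. They rest on separate libraries, but the WT levels may not be independent. Deviations of same-numbered WT libraries correlated between lineages at 0.75, 0.28 and 0.56, against -0.64 to 0.29 for different numbers. In both, all KO libraries lay below all WT libraries for 6 of the 38 genes (Lcp2, Lat, Cd247, Icos, Ubash3a and Fyb) and above them for 3 (Ubash3b, Rasgrp1 and Nfatc2). These are 15.8% and 7.89% of the 38, against 12.7% and 13.4% of the 13070 genes tested in both. Icos, an inducible costimulatory receptor, stood at 152, 130 and 149 TPM in Th17 KO, against 336, 220 and 192 TPM in Th17 WT, and at 296, 278 and 263 TPM in Th1 KO, against 477, 362 and 335 TPM in Th1 WT. It was lower in every KO library and missed the threshold in each lineage (limma adjusted p = 0.115 in Th17 and 0.0530 in Th1). In Th1 it passed with the replicate block (limma adjusted p = 0.0391), with voom, with a limit of 10 reads and without WT replicate 3, and in Th17 with the spread of all 12 libraries. Fyb, the adaptor that links to integrins, stood at 28.7, 29.0 and 35.5 TPM in Th17 KO, against 37.0, 43.6 and 36.1 TPM in Th17 WT, and at 23.1, 26.9 and 26.8 TPM in Th1 KO, against 28.3, 34.8 and 34.0 TPM in Th1 WT. Its genotypes were close together in both lineages without overlapping, and it passed in neither. Nfatc2 stood at 14.2, 93.5 and 13.9 TPM in Th17 KO, against 11.3, 8.66 and 7.93 TPM in Th17 WT, and at 13.7, 13.8 and 11.96 TPM in Th1 KO, against 10.2, 8.93 and 9.16 TPM in Th1 WT. It was higher in every KO library and passed in neither lineage (limma adjusted p = 0.248 in Th17 and 0.0559 in Th1). Vav3 was the 1 gene with the genotypes apart in opposite directions, at 2.64, 5.65 and 2.63 TPM in Th17 KO, against 0.799, 1.51 and 1.26 TPM in Th17 WT, and at 2.60, 2.62 and 2.14 TPM in Th1 KO, against 2.70, 2.95 and 3.44 TPM in Th1 WT.

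The test of the difference between the Th17 and the Th1 effect passed for none of the 38 genes in limma, against 0.638% of all 14579 genes. An unadjusted p under 0.05 in limma was found for 4 of the 38 and for 930 of all genes. With Th17 KO replicate 2 left out none passed, against 1.19% of all genes. In that fit 10 of the 38 and 2137 of 14349 genes had an unadjusted p under 0.05 in limma. The median difference was then -0.206 for the 38 and -0.114 for all genes, against 0.077 and 0.005 with that library. With voom on recovered reads 0 passed, against 67 of 14579 genes, and 5 of the 38 and 935 of all genes had an unadjusted p under 0.05. The 4 with all libraries in limma were Vav3 (difference 1.26 ± 0.36, limma adjusted p = 0.241), Grap (0.76 ± 0.24), Cd28 (0.76 ± 0.25) and Lat (-0.65 ± 0.22). That Cd28 passed in Th17 and not in Th1, or that Zap70 passed in Th1 and not in Th17, was therefore not called as a difference between the lineages.

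Within WT, 0 of the 38 genes differed between Th17 and Th1 in limma, against 3.63% of all genes tested. An unadjusted p under 0.05 in limma was found for 5 of the 38, against 2134 of 14579 genes. Lcp2 stood at 214 ± 19.5 TPM in Th17 WT and 174 ± 5.85 TPM in Th1 WT (SD, n = 3 each; log2 difference 0.30, 95% interval -1.11 to 1.70). The smallest adjusted p on the lower side was that of Vav3 (-0.89, limma adjusted p = 0.0892), followed by Icos (-0.67), Cd28 (-0.38), Fyn (-0.54) and Cblb (-0.83), and on the higher side that of Lat (0.47, limma adjusted p = 0.150), followed by Sh2d2a (0.44), Tec (0.68), Lck (0.39) and Vav1 (0.62). The spread in this test is shared by all 4 groups. Without Th17 KO replicate 2 it passed 5 genes, against 11.0% of all genes, Cd4 (0.58), Lat (0.47), Plcg1 (0.96) and Vav1 (0.62) as higher in Th17 and Vav3 (-0.89) as lower, although no WT value had changed. Vav3 alone of the 38 also passed with voom on recovered reads, where 651 of all 14579 genes passed. In that voom fit 5 of the 38 and 2069 of all genes had an unadjusted p under 0.05. Vav3 alone also passed with median-of-ratios scaling, where 583 of all genes did. Icos alone passed without Th17 WT replicate 1, where 403 of 14448 genes did. The median of all genes was 0.138 here, and -0.003 with median-of-ratios scaling, which turned the split of all calls to 217 higher and 366 lower in Th17, against 270 and 259 in the main comparison; the median of the 38 was 0.098 and, with that scaling, -0.055.

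Within KO, 2 of the 38 differed between Th17 and Th1, against 5.91% of all genes tested. Grap, an adaptor of the Grb2 family, stood at 306, 276 and 299 TPM in Th17 KO, against 139, 153 and 153 TPM in Th1 KO (log2 difference 0.98 ± 0.17, limma adjusted p = 0.00378). Icos stood at 152, 130 and 149 TPM in Th17 KO, against 296, 278 and 263 TPM in Th1 KO (-0.95 ± 0.21, limma adjusted p = 0.0180). Neither gene overlapped between the lineages. The next genes did not pass, with Tec (0.97, limma adjusted p = 0.0558), Was (1.07), Zap70 (1.60) and Plcg1 (1.60) on the higher side and Fyn (-0.70), Cd3d (-0.59), Cd3g (-0.56) and Cd247 (-0.51) on the lower. With Th17 KO replicate 2 left out the differences were 0.79 for Tec, 0.41 for Was, 0.54 for Zap70 and 0.51 for Plcg1, and -1.03 for Fyn, -0.32 for Cd3d, -0.25 for Cd3g and -0.78 for Cd247. Lcp2, at 78.5 ± 98.4 TPM in Th17 KO and 15.6 ± 1.88 TPM in Th1 KO (SD, n = 3 each), differed by 1.45 (95% interval 0.04 to 2.85, limma adjusted p = 0.233), and passed without Th17 KO replicate 1, when replicate 2 made up 1 of 2 libraries. Without replicate 2 the Lcp2 difference was 0.40 (95% interval -0.10 to 0.89, limma adjusted p = 0.340). Icos lost its call without any 1 of the Th1 KO libraries. Without Th17 KO replicate 2, 5 of the 38 passed, adding Cd247, Fyn and Ubash3a (-0.86), against 8.50% of all genes, and the median was 0.071 for the 38 and 0.049 for all genes. The median of all genes was 0.125 and, with median-of-ratios scaling, -0.036, which turned the split of all calls to 470 higher and 564 lower in Th17, against 488 and 373 in the main comparison; the median of the 38 was 0.247 and, with that scaling, 0.056.

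A further 59 genes of the pathway were listed beside the 38. In Th1, 12 of the 56 tested rose and 7 fell in KO (33.9%, near the background of 17.6% rising and 13.7% falling over all genes), led by Orai1 (1.48, limma adjusted p = 0.000344), the calcium channel of the plasma membrane, Evl (-1.78), an actin regulator, Trat1 (-1.58), a receptor-associated adaptor, and Cd5 (1.28), a surface brake. In Th17, 2 of the 58 tested rose, among them Nfkb1 (1.30), an NF-kappaB subunit, and 2 fell, Sit1 (-1.64) and Trat1 (-1.12), both receptor-associated adaptors. These 4 were 6.9% of the 58, against 4.60% of all genes rising and 2.70% falling. Without Th17 KO replicate 2 the count was 5 up and 7 down of 57 (21.1%, against 7.76% rising and 8.44% falling). The median log2 fold change was 0.13 in Th1 and 0.16 in Th17, against 0.031 and 0.039 for all genes. Without that library the Th17 median turned to -0.18, against -0.108 for all genes. None of the 58 passed the test of the difference between lineages in limma or with voom, against 93 and 67 of all 14579 genes. An unadjusted p under 0.05 was found for 6 in limma and 7 with voom, against 930 and 935 of all genes. With Th17 KO replicate 2 left out none of 57 passed, against 171 of 14349 genes. In that limma fit 14 had an unadjusted p under 0.05, against 2137 of all genes. The median was then -0.25, against -0.114 for all genes.

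Markers of other cell types moved with genotype. Over all genes tested, 4.60% rose and 2.70% fell in Th17, and 17.6% rose and 13.7% fell in Th1. Sums below are over all listed markers, tested or not. The 4 gamma delta T cell receptor genes all rose in both lineages and summed to 165 to 255 TPM in Th17 KO against 17.3 to 20.1 TPM in Th17 WT, and to 171 to 268 TPM in Th1 KO against 13.7 to 33.3 TPM in Th1 WT. Of 7 CD8 and NK cell markers, 6 were tested in each lineage. Of these, 2 rose in Th17 (sums of 90.5 to 108 TPM in KO and 49.1 to 64.2 TPM in WT), and 4 rose and 2 fell in Th1 (195 to 283 TPM in KO and 62.1 to 78.5 TPM in WT). Of 8 myeloid markers, 5 were tested in Th17 and 3 in Th1. Of these, 3 rose in Th17 (44.2 to 64.9 TPM in KO and 12.4 to 14.6 TPM in WT) and 2 in Th1 (25.2 to 46.1 TPM in KO and 10.9 to 14.0 TPM in WT). Adgre1 was at 0 in all WT libraries, and in Th1 WT so was Csf1r. The 8 red cell and platelet markers summed to 46.2 to 115 TPM in Th17 KO and 9.26 to 17.5 TPM in Th17 WT, and to 59.6 to 198 TPM in Th1 KO and 11.7 to 25.3 TPM in Th1 WT, with 2 of the 6 tested rising in each lineage. Of 7 B cell markers, 5 were tested in each lineage. Of these, 1 rose in Th17 (132 to 198 TPM in KO and 114 to 153 TPM in WT) and none in Th1 (68.4 to 475 TPM in KO and 88.1 to 112 TPM in WT). The 6 alpha beta T cell markers summed to 8076 to 10609 TPM in Th17 KO and 7573 to 9129 TPM in Th17 WT, and to 8914 to 9562 TPM in Th1 KO and 6963 to 7692 TPM in Th1 WT. The part of these cell types in the changes of the 38 genes, several of which gamma delta T cells and NK cells also use, was not tested. Immediate early genes, which receptor signals and handling both induce, summed to 2097 to 2610 TPM in Th17 KO and 1339 to 1541 TPM in Th17 WT, and to 1938 to 2322 TPM in Th1 KO and 891 to 1180 TPM in Th1 WT. Of the 13 listed, 4 of the 11 tested rose in Th17 and 10 of the 12 tested in Th1.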

How the data were processed

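Total RNA of 12 libraries was measured by single-end sequencing of amplified full-length cDNA, per the labels' protocols, which mark no strand. The submitters' processing notes list the build GRCm38.p6, STAR 2.7.2b, featureCounts 1.6.4 (Subread), DESeq2 1.24.0, cutadapt and bcl2fastq 2.20.0.422 but not their roles. Each lineage has 1 table that the authors deposited, holding TPM values, which are written with decimal commas, hold no counts and sum to 1000000 in each library, with the position and exon length of each gene. The start matched RefSeq's for GRCm38.p6 in 45697 of 45703 genes. In each library 100.0% of the products of TPM and exon length were whole multiples of a single unit (tolerance 0.02), taken as 1 read, which gave 16596283 to 28496606 reads per library. A gene of 1 kb with 3 reads would stand at 0.19 to 0.437 TPM. That floor covers counting error only, since amplified reads are not separate molecules. As a check for a repeated deposit of a library, replicates were compared with counting noise, and none agreed within it (chi-square per gene of 12.2 or more). Since reads are amplified, this says nothing of the biological spread.

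Sample titles gave the groups and replicate numbers. On log2(TPM + 1), limma 3.58.1 in R 4.3.3 tested the genes that reached 1 TPM in 3 libraries of a comparison (two-sided, eBayes with trend), with Benjamini-Hochberg adjustment over all genes tested and a threshold of 0.05. Since a pseudocount of 1 is added, fold changes of low genes are understated. Genotypes were compared within a lineage on its 6 libraries, while the difference between lineages and Th17 against Th1 came from 1 model of all 12 libraries with a mean for each of the 4 groups. The steps were tested on simulated reads that had the same spread for every gene and library and no outlying library. That test therefore does not cover data with the scatter of the Th17 KO group.

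The 38 genes and the lists of further genes were chosen with earlier results of these data known. Values are named for Lcp2 in every comparison, for each of the 38 that passed a genotype test, for the 5 of smallest adjusted p in each direction between lineages, and for up to 4 further pathway genes per comparison, of which 1 is not reported here; others are given to show a pattern and were chosen after their values were seen. Deviations from the group mean correlated between same-numbered Th17 KO and WT libraries at 0.14, 0.43 and 0.24, and between Th17 WT and Th1 WT libraries at 0.75, 0.28 and 0.56, and these correlations alone were the ground for treating same-numbered libraries as pairs there. Between different numbers they ran from -0.43 to 0.11 and from -0.64 to 0.29. The 0.28 of the WT libraries lay within the latter range. The pairing was thus inferred from these same data and is not given by the labels. Promoter windows came from a RefSeq table of GRCm38.p6 and covered 31 of the 38 genes.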

Additional observations from a re-analysis of the deposited data

Results flagged for a closer look

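Vav3, an exchange factor for small GTPases, had its genotypes apart in opposite directions in the lineages. Every KO library was above every WT library in Th17 and below every WT library in Th1, and the Th17 effect minus the Th1 effect was 1.26 on the log2 scale. The test of this difference gave an unadjusted p of 0.00437 in limma and an adjusted p of 0.241 over all genes, so it did not pass. Neither did the genotype effects, 1.04 in Th17 (limma adjusted p = 0.0944) and -0.22 in Th1 (95% interval -0.59 to 0.15, limma adjusted p = 0.334). The Th17 effect passed with median-of-ratios scaling, with voom on recovered reads and with the spread of all 12 libraries, and in no other alternative. Without Th17 KO replicate 2 the difference was 0.97 (limma adjusted p = 0.0989). Vav3 was the gene with the lowest mean level of the 38, at 2.58 TPM.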

How the results depend on the processing

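In Th17, the number of the 38 genes passing the KO against WT test was 3, beside 1009 of all 13823 genes. It was 5 beside 1208 with median-of-ratios scaling, 5 beside 1399 with the replicate block (paired fit) and 6 beside 1277 with voom on recovered reads. With the spread of all 12 libraries it was 10 beside 2933 of 14579. Leaving out 1 library at a time gave 0 to 8 beside 109 to 2158 of all genes. In Th1 the number was 15 beside 4220 of all 13487 genes, and 4 beside 2568 of 14579 with the spread of all 12 libraries. It was 8 to 18 beside 2594 to 4587 of all genes when 1 library was left out. For Th17 against Th1 in WT it was 0 beside 529 of 14579 genes, and 1 with median-of-ratios scaling or voom, beside 583 and 651. It was 0 to 5 beside 309 to 1582 of all genes when 1 library was left out. In KO it was 2 beside 861 of 14579 genes, and 4 with median-of-ratios scaling or voom, beside 1034 and 1061. It was 1 to 5 beside 449 to 1219 of all genes when 1 library was left out. The difference between lineages stayed at 0 in every alternative run, while 21 to 171 of all genes passed. Pseudocounts of 0.5 and 5 and a limit of 10 reads per gene, the last added after the data were seen, moved no count by more than 1.5 times, and neither did dropping the filter on low TPM. No log2 fold change of a gene followed through the alternatives turned its sign. The replicate block changed no count by over 1.5 times other than that of Th17. In Th1 and within KO the same numbers correlated at 0.19, 0.24 and -0.07, and at 0.23, -0.05 and -0.20. Between different numbers the correlations there ran from -0.33 to 0.17 and from -0.24 to 0.23. Whether same-numbered libraries are pairs there cannot be told from these values. The planned count model was not run, because the tables hold TPM; voom on recovered reads, chosen after seeing the data, took its place. The causes of these shifts were not tested.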
